A study of Mus musculus with 25 samples.

Results

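The ATP-binding cassette (ABC) transporter genes were taken as the protein-coding genes of the GENCODE vM1 annotation of mouse genome build mm9 whose symbol is Abca to Abcg followed by a number, without Abcb10. There were 49 of them among 22208 protein-coding genes, with 16 in subfamily A, 9 in B, 10 in C, 4 in D, 1 in E, 3 in F and 6 in G. GATA1 and TAL1 were mapped by ChIP-exo, a form of chromatin immunoprecipitation in which an exonuclease trims each fragment up to the cross-linked protein, which places the bound site to within a few bases. All cells were of mouse strain 129: G1E, an erythroid progenitor line without GATA1, and G1E-ER4, its derivative with GATA1 fused to the estradiol-binding domain of the estrogen receptor. The G1E line gave 1 GATA1 and 4 TAL1 libraries. The G1E-ER4 line gave 3 GATA1 and 5 TAL1 libraries before treatment, 3 of each factor after 3 h and 3 of each after 24 h. The 0-h cells were untreated, and the 3- and 24-h cells received beta-estradiol, at 10 nM by the sample labels and at a higher concentration by the methods. GATA1 in the G1E-ER4 cells is therefore the fusion protein, also at 0 h, and every cell is of the G1E lineage. By the paper, this protein is partly nuclear and binds across the genome already before treatment.

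For each factor there was a list of peak pairs, in which peaks on opposite strands are joined at their midpoint, a list of locations called by the program MultiGPS, and a final list of the MultiGPS locations that lie within 100 bp of a peak pair. The final lists held 10290 GATA1 and 15209 TAL1 locations, each a single base with no tag count, and each list pools its libraries. Neither the spread between cultures nor a change with time can therefore be read from them. By the paper, the GATA1 lists were made from G1E-ER4 cells, whereas the sample labels also tie the G1E library to them. The depth behind a location is unknown. The lists hold no expression, so the cell type was checked only by where locations lie. Of 10 erythroid genes, 9 had final locations of GATA1 and 9 of TAL1 in the gene or within 10 kb, and the one with neither was Hba-a1. Of 8 genes of other cell types only Gfap had any, with 1 location of each factor. Among all protein-coding genes, 23.9% had GATA1 and 21.3% had TAL1 by the same rule.

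ABC proteins use the energy of ATP to move substrates across membranes. Some carry both nucleotide-binding domains in one chain and others form dimers, while the E and F subfamilies have no membrane domains and act on ribosomes. In red cells and their precursors the family is known for export of porphyrins, cholesterol, glutathione conjugates and cyclic nucleotides, and for surface antigens, since human ABCG2 carries the Junior and human ABCB6 the Lan blood group. GATA1 binds the motif WGATAA, in which W is A or T. TAL1 binds in complexes that can contact GATA1 and an E-box, the site of basic helix-loop-helix proteins.

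The first set of sequences gives mm9 bases at each ABC gene where the factors lay under 40 bp apart. Each surrounds the GATA1 location of the gene with the closest TAL1 location, and sites beyond the printed bases are not shown. Each is the plus strand, centered on the location except for Abcg4. Capitals mark AGATAA or TGATAA on either strand and the E-boxes CAGATG or CAGCTG. Where a sequence had no exact WGATAA, capitals also mark the site found by a weight matrix 8 bp wide that was learned from 500 GATA1 locations, at a match p of 0.001. The Abcg4 sequence leaves out the transcribed bases and has 64 bases, the others 81.
Abcg2, chr6:58592369-58592449: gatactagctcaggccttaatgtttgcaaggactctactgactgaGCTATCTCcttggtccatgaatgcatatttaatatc
Abcc6, chr7:53290832-53290912: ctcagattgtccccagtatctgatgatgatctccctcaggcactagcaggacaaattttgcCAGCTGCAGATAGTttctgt
Abcc4, chr14:119041530-119041610: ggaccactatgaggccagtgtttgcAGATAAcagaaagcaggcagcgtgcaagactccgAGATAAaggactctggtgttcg
Abca1, chr4:53134104-53134184: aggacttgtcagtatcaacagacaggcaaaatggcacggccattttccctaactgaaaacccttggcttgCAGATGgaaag
Abca3 and Abca17, chr17:24491109-24491189: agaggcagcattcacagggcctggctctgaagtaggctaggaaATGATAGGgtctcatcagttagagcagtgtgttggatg
Abcb6, chr1:75175998-75176078: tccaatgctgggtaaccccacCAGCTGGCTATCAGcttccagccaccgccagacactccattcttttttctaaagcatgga
Abcg4, chr9:44096699-44096762: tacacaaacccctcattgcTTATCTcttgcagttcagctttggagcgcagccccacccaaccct

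Only the Abcc4 and Abcg4 sequences held an exact WGATAA. In those of Abcg2, Abcc6, Abca3 with Abca17, and Abcb6, the marked GATA site ended in G instead, with the core AGATAG or TGATAG. The TAL1 location closest to the Abca3 and Abca17 site, at 24491126, did have an exact WGATAA within 40 bp. So did another GATA1 location with TAL1 under 40 bp away at Abcg2, at 58592304, and one at Abcc6, at 53286697. At Abcc6 and Abcb6 an E-box CAGCTG directly adjoined the marked GATA site. The Abca1 sequence held an E-box CAGATG but no GATA site by either definition. Exact WGATAA sites lay at its edges, not wholly inside the printed bases. They were within 40 bp of the neighboring TAL1 locations at 53134125 and 53134174.

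Over the whole family, 13 of the 49 ABC genes had a final GATA1 location in the gene or within 10 kb, or 26.5% (95% exact binomial interval, 14.9 to 41.1%), against 23.9% of all protein-coding genes. A final TAL1 location was present at 14, or 28.6% (16.6 to 43.3%), against 21.3% of all genes. Both factors were present at 10, against a background of 16.3%, and 8 had a cooccupied GATA1 location, defined as one with a TAL1 location under 40 bp away, against 11.1%. Either factor was found at 17 ABC genes (34.7%), while 29.0% of all genes had one. All these backgrounds lay inside the intervals of the ABC genes, and no test was made of the differences. The intervals cover counting error only and treat genes as independent, although 11 of the ABC genes have windows that overlap that of another.

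By the other lists, MultiGPS locations of GATA1 were at 14 ABC genes and those of TAL1 at 14, against 27.5% and 24.8% of all genes. Peak pairs of GATA1 were at 25 (51.0%, background 48.4%) and those of TAL1 at 31 (63.3%, background 50.1%).

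The distribution among members was uneven, as it was among all genes. The ABC genes held 25 separate final GATA1 locations and 51 final TAL1 locations, and 4 genes, Abcg2, Abca1, Abcc4 and Abcc6, held 14 of the former (56.0%) and 36 of the latter (70.6%). Abcg2 alone held 14 TAL1 locations, and 32 of the 49 genes had no final location of either factor. The median per gene was 0 for both factors, among ABC genes and among all genes. At least 3 GATA1 locations were at 6.12% of ABC genes and 5.05% of all genes. For TAL1 these shares were 10.2% and 8.36%, and the most at any gene was 166. TAL1 locations outnumbered GATA1 locations at Abcg2, Abca1, Abcc4, Abcc5, Abcb6 and Abcg4, equaled them at Abcc6, Abcb9 and Abca17, and were fewer at Abca3. By final locations, only GATA1 was present at Abcc1, Abcc2 and Abce1, and only TAL1 at Abca4, Abca16, Abcc3 and Abcc8.

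**Figure D1:**
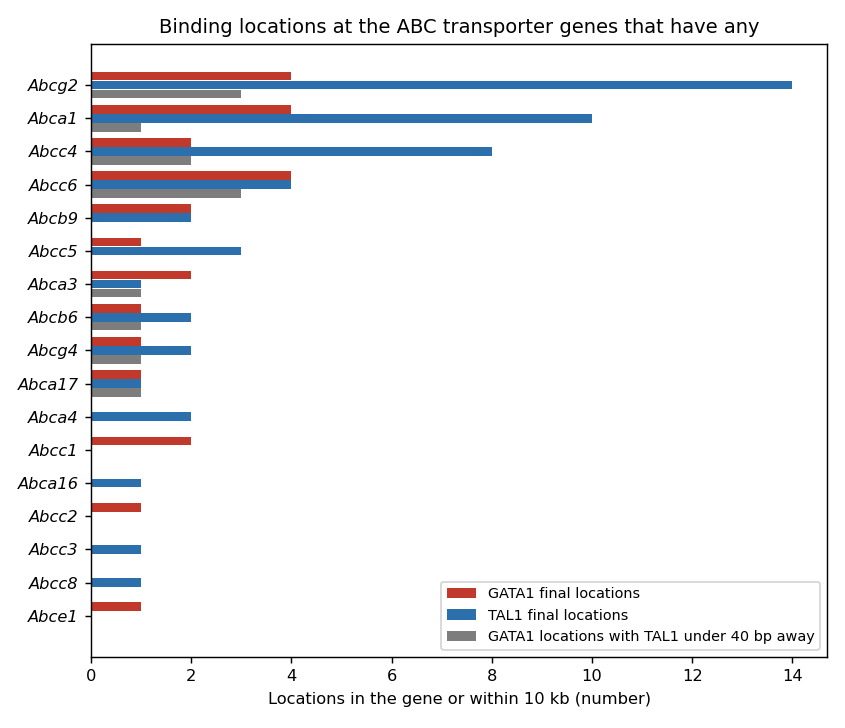
Number of final GATA1 locations, final TAL1 locations and cooccupied GATA1 locations (horizontal axis) at the 17 ABC transporter genes that had any (vertical axis), with 3 bars per gene. Abcg2 has 4 GATA1 and 14 TAL1 locations, and most of the lower rows have 1 or 2 of either factor.

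ABC genes are long, with a median of 65.5 kb against 15.5 kb for all protein-coding genes, and a longer window has more room for a location. Among all genes, 17.0% of those with a window under 40 kb had a GATA1 location, and 36.2% of those with a window over 120 kb. Of the ABC genes with a window under 40 kb, 2 of 9 had GATA1 (background 17.0%) and the same number TAL1 (14.5%), and these were Abcb6 and Abcg4. With 40 to 80 kb, 5 of 14 had GATA1 (background 30.1%) and 4 had TAL1 (25.8%). With 80 to 120 kb, 2 of 14 had GATA1 (37.5%) and 3 had TAL1 (36.0%). With over 120 kb, 4 of 12 had GATA1 (36.2%) and 5 had TAL1 (36.3%). The ABC share was above that of all genes of like length in the first 2 classes and below it for both factors at 80 to 120 kb. Over 120 kb it lay on different sides for the 2 factors. Each class held only 9 to 14 ABC genes, no interval was computed, and the differences were not tested.

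**Figure D2:**
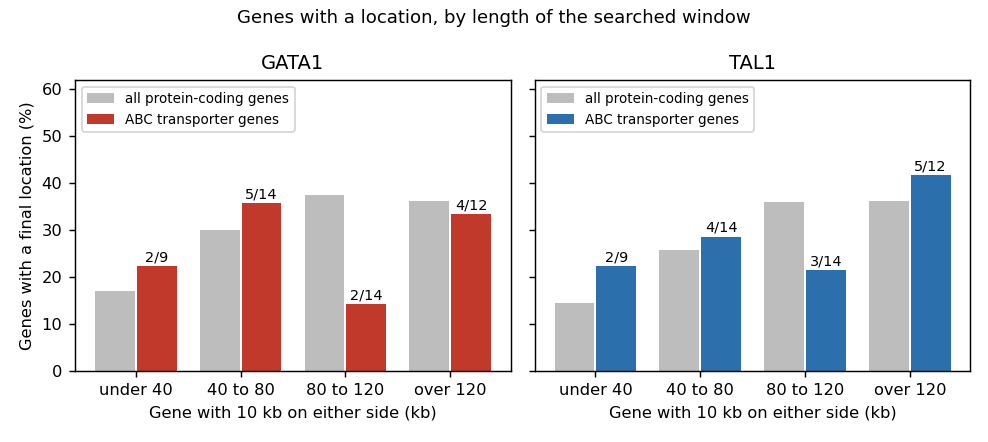
Percentage of genes with a final GATA1 (left) or TAL1 (right) location, by the length of the gene with 10 kb on either side, for all protein-coding genes (gray bars) and ABC transporter genes (colored bars, with the number of genes above each). Among all genes the GATA1 percentage goes from 17.0 to 36.2 between the shortest and the longest class, and the ABC bars lie on both sides of the gray ones.

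Of the genes for porphyrin and mitochondrial transport, Abcg2 and Abcb6 had both factors and Abcb8 had no final location. Abcg2 encodes an efflux pump of the plasma membrane that exports porphyrins, urate and drugs and marks side population stem cells. Its 18 final locations, 4 of GATA1 and 14 of TAL1, were the most of any ABC gene. As many TAL1 locations were reached by 81 of the 22208 genes (0.365%), and as many GATA1 locations by 610 (2.75%). These ranks take no account of length, and the Abcg2 window was 128 kb against a median of 35.5 kb for all genes. MultiGPS called 4 GATA1 and 15 TAL1 locations there, and peak pairing 17 and 27 pairs.

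All 18 Abcg2 locations lay in introns, in 4 stretches of a gene that runs from 58534517 to 58642863 on the plus strand of chromosome 6. The first stretch held 3 TAL1 locations, at 58582491, 58582549 and 58582632, 7908 to 8049 bp before an annotated start site inside the gene. It had no final GATA1 location. A GATA1 peak pair at 58582639 had a TAL1 pair under 40 bp away and an exact WGATAA within 40 bp. GATA1 at 58590806 and TAL1 at 58590846, 248 and 288 bp behind a start site, lay exactly 40 bp apart and so missed the definition of cooccupancy. The densest stretch followed at chr6:58592192-58592660, where 9 TAL1 and 2 GATA1 locations fell within 469 bp. Among these, TAL1 at 58592374 and 58592375 lay on adjacent bases and were counted separately. The GATA1 locations of this stretch, at 58592304 and 58592409, were 3 and 2 bp from the closest TAL1 location. The last stretch held GATA1 at 58598539 and TAL1 at 58598577. In the dense stretch and 100 bp on either side there were 7 GATA1 and 17 TAL1 peak pairs. The same bases held 2 exact WGATAA sites, 1 site ending in G and no CAGATG or CAGCTG. By the paper, separate pairs need not be separate binding locations, and each factor gave more than 1 pair around a WGATAA.

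The GATA1 location at 58592304 had TG placed 8 bases before TGATAA on the minus strand, a spacing known from sites where TAL1 complexes join GATA1. It was picked out after its values were seen, and capitals mark the TGATAA, which reads TTATCA on the plus strand.
Abcg2, chr6:58592264-58592344: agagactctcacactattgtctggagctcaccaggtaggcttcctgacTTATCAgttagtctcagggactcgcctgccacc

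Abcb6 encodes a transporter, active as a dimer, that is linked to porphyrin uptake into mitochondria and to the plasma membrane of red cells. The gene is the shortest of the family at 8.68 kb, and it had 1 GATA1 location at 75176038 and TAL1 locations at 75176024 and 75176165 on chromosome 1. The first 2 lay 14 bp apart in an intron, 928 and 942 bp from the gene start, and the last lay in coding sequence. MultiGPS called 1 GATA1 and 3 TAL1 locations, and the additional one, TAL1 at 75184920, lay 3486 bp from the closest TAL1 pair. Per 100 kb of window Abcb6 had 3.49 final GATA1 and 6.97 TAL1 locations, while Abcg2 had 3.12 and 10.9. None of its 3 GATA1 and 6 TAL1 peak pairs had an exact WGATAA within 40 bp, and the cooccupied site shown above holds TGATAG beside an E-box. Abcb8, a transporter of the inner mitochondrial membrane, had 1 GATA1 peak pair and nothing else.

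**Figure D3:**
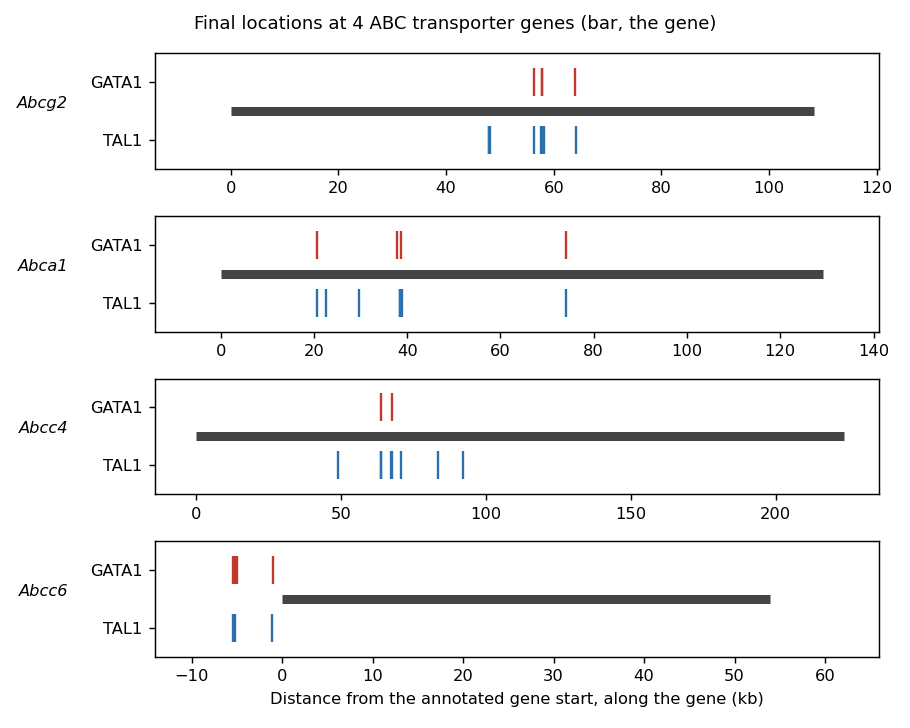
Final GATA1 (upper ticks) and TAL1 (lower ticks) locations at Abcg2, Abca1, Abcc4 and Abcc6, with the distance from the annotated gene start in kb along the gene on the horizontal axis and the gene as a dark bar. At Abcg2, Abca1 and Abcc4 all locations are inside the gene, and at Abcc6 all lie before its start.

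Among the genes for export of cholesterol and phospholipid, Abca1 and Abcg4 had both factors, and Abca7, Abcg1, Abcg5 and Abcg8 had no final location. Abca1 loads cholesterol and phospholipid onto lipid-free apolipoprotein. It had 4 GATA1 and 10 TAL1 locations, 4 and 11 MultiGPS calls, and 11 and 34 peak pairs. As many TAL1 locations were reached by 217 genes (0.977%), again without regard to length, and the Abca1 window was 149 kb. All final locations of Abca1 were in introns of the minus-strand gene from 53043659 to 53172767 on chromosome 4. They lay between 20656 and 74148 bp from the gene start. The densest stretch, chr4:53133954-53134862, held 6 TAL1 and 2 GATA1 locations, one of the latter cooccupied, at 53134144 and 19 bp from TAL1, and the other, at 53134862, 497 bp from TAL1. The TAL1 locations there were 53133954, 53134024, 53134125, 53134174, 53134261 and 53134365, and TAL1 at 53142994 and 53150153 stood alone. Farthest from the gene start, GATA1 at 53098619 lay 121 bp from TAL1 at 53098740, and nearest to it GATA1 at 53152048 lay 63 bp from TAL1 at 53152111. Of the 4 GATA1 locations of Abca1, then, 1 was cooccupied, although each had TAL1 under 500 bp away.

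Abcg4 encodes a transporter that moves sterols and is known from brain and from megakaryocyte progenitors. Its GATA1 location at 44096722 on chromosome 9 lay 24 bp before the annotated start, inside the AGATAA of the sequence shown above. TAL1 was called at 44096755, 57 bp before the start, and at 44096655, 43 bp behind it, the latter in the untranslated part of the first exon. There were 1 GATA1 and 2 TAL1 MultiGPS calls and 3 and 6 peak pairs. Abcg4 was the only ABC gene with a final GATA1 location within 100 bp of its annotated gene start. Abcg1, the relative of Abcg4 that exports cholesterol from macrophages, had 1 TAL1 peak pair. Abcg5 and Abcg8, which form the sterol exporter of liver and gut and share a stretch of chromosome 17, had no entry in any list. Abca7, a lipid transporter linked to phagocytosis, had 1 GATA1 peak pair and 1 MultiGPS location of GATA1 that lay 10061 bp from the closest GATA1 pair.

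Of the genes for drug and conjugate export, Abcc4, Abcc5 and Abcc6 had both factors, and, in the final lists, Abcc1 and Abcc2 had GATA1 alone and Abcc3 had TAL1 alone. Abcc4 exports cyclic nucleotides and prostaglandins. It had 2 GATA1 and 8 TAL1 locations, all in introns of a gene of 224 kb on the minus strand of chromosome 14, and both GATA1 locations were cooccupied. These lay at 119037910, 28 bp from TAL1, and at 119041570, 11 bp from TAL1. MultiGPS called 4 GATA1 and 11 TAL1 locations, so that 5 of its calls had no peak pair within 100 bp, the most of any ABC gene. One of these, for GATA1 at 119013241, lay 21927 bp from the closest GATA1 pair, while TAL1 had a peak pair at 119013261 and a final location at 119013250. Peak pairing gave 13 GATA1 and 19 TAL1 pairs. The TAL1 locations beside GATA1 were 119037938, 119038062, 119041434 and 119041559. The other 4, at 119013250, 119021781, 119034738 and 119056531, stood alone, with no final location of either factor under 500 bp away.

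Abcc6, whose loss causes ectopic calcification, had 4 GATA1 and 4 TAL1 locations, as many MultiGPS calls, and 13 and 11 peak pairs. All locations lay before its start at 53285672 on chromosome 7. GATA1 at 53286697 and TAL1 at 53286731 lay 1025 and 1059 bp upstream, 34 bp apart. The other 6 formed a stretch at chr7:53290625-53291110 inside Nomo1, the neighboring gene, 1559 to 2044 bp from a start site of Nomo1. By the closest start site these 6 would be counted for Nomo1, and at Abcc6 they are counted by the window alone. Along the stretch the factors alternated, with GATA1 at 53290625, 53290872 and 53291083 and TAL1 at 53290863, 53291029 and 53291110, and with pairs of GATA1 and TAL1 locations 9 and 27 bp apart, and 10 of the 11 TAL1 peak pairs at Abcc6 had a GATA1 pair under 40 bp away. None of the 4 TAL1 locations at Abcc6 had an exact WGATAA within 40 bp, whereas 2 of the 4 GATA1 locations did.

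**Figure D4:**
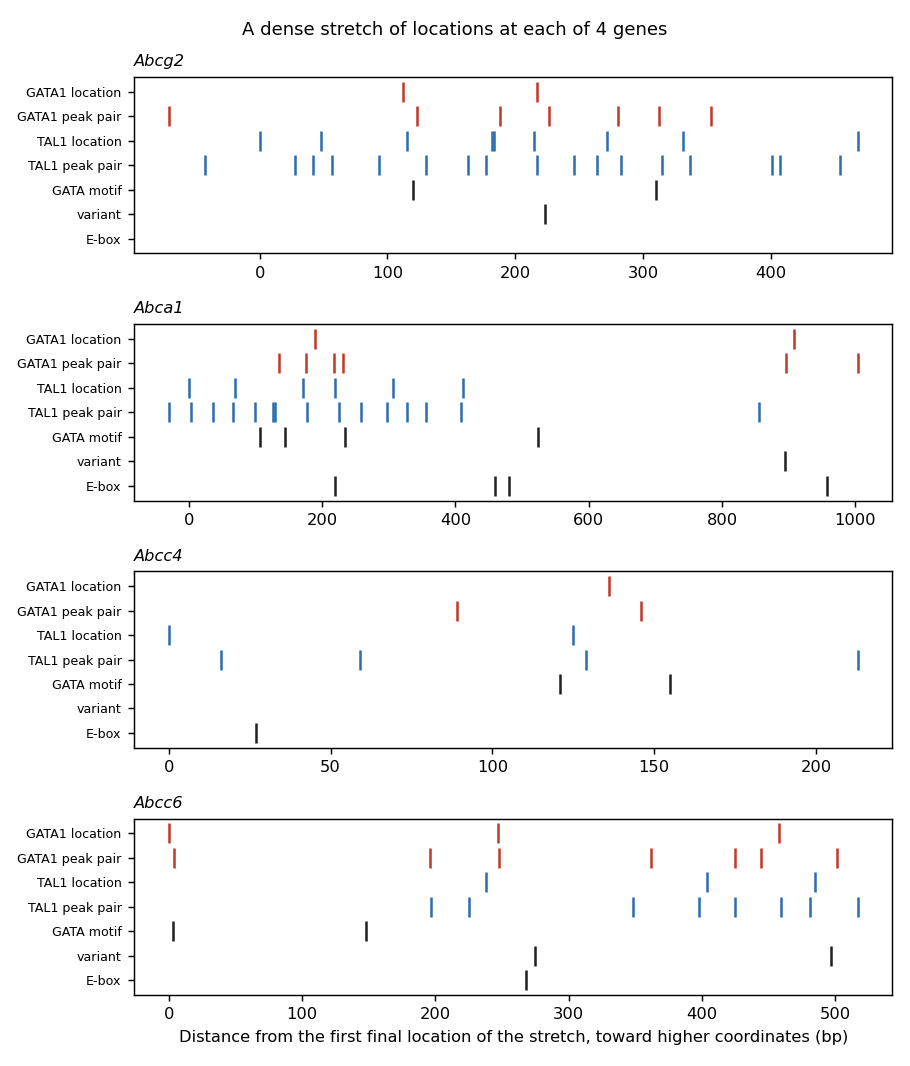
A dense stretch at each of Abcg2, Abca1, Abcc4 and Abcc6, with the distance in bp from its first final location on the horizontal axis and tracks for final locations and peak pairs of either factor, for the exact GATA motif, for the variant that ends in G and for the E-box. For Abcc4 one of its 2 stretches with 3 locations is shown. The Abcg2 stretch has 9 TAL1 locations, 17 TAL1 pairs and 2 exact motifs, and separate pairs need not be separate binding locations.

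Abcc5, an exporter of cyclic nucleotides, had TAL1 at 20424387, 20424487 and 20424713 and GATA1 at 20424430 on chromosome 16, all within 327 bp in an intron. GATA1 lay 43 bp from the closest TAL1 location and so just outside the limit of 40 bp. The MultiGPS counts were the same, 1 and 3, and there were 6 GATA1 and 9 TAL1 peak pairs. Abcc1, a transporter of glutathione conjugates and leukotriene C4, had GATA1 at 14351817, upstream of the gene, and at 14372996, in an intron. The intronic location had an exact WGATAA and 5 GATA1 peak pairs within 100 bp, a number also reached by one GATA1 location each at Abcc6 and Abcg2, while the upstream one had neither that motif nor a pair within 40 bp. The closest TAL1 locations were 43098 and 64277 bp away. MultiGPS called 2 GATA1 and no TAL1 locations at Abcc1, and there were 8 GATA1 pairs and 1 TAL1 pair. Abcc2, which exports conjugated bilirubin from liver cells, had 1 GATA1 location 7740 bp upstream of its start. Abcc3, a transporter of conjugates and bile acids, had 1 TAL1 location, at 94212558 in an intron, with 2 WGATAA sites within 40 bp. It had no final GATA1 location but 2 GATA1 peak pairs, one of them beside TAL1 at 94212571. Abcb1a and Abcb1b, the P-glycoprotein genes of the mouse, had 0 and 1 peak pairs and no location, Abcc10 had 1 peak pair, and Abcc12 had no entry in any list.

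Other members that had locations span diverse roles. Abcb9, a peptide transporter of lysosomes, had 2 GATA1 and 2 TAL1 locations, the same MultiGPS counts, and 3 and 5 peak pairs. GATA1 at 124542096 lay between TAL1 at 124541992 and 124542143, 47 bp from the latter, and GATA1 at 124525279 lay apart, with all 4 in introns. Abca3, needed for lung surfactant, and its neighbor Abca17, which lie head to head, shared 1 cooccupied location. In it GATA1 at 24491149 lay 23 bp from TAL1 at 24491126, in an intron of Abca3. Abca3 had 1 further GATA1 location, downstream at 24555400 and inside Rnps1. The MultiGPS counts were those of the final lists, and the peak pairs were 3 of GATA1 and 2 of TAL1 at Abca3 and 1 and 2 at Abca17. Abce1, the factor that recycles ribosomes, was the only gene of the E and F subfamilies with a final location. Its GATA1 location at 82233504 on chromosome 8 lay in an intron 2135 bp from the start, had 2 AGATAA sites at 31 bp and had no TAL1 location within 83168 bp. It is printed here, picked out after its values were seen, as a site of GATA1 without TAL1, with AGATAA as TTATCT.
Abce1, chr8:82233464-82233544: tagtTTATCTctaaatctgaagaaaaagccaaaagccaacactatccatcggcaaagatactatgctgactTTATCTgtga

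A further set shows TAL1 without a final GATA1 location close by. These sequences surround the 3 TAL1 locations at ABC genes with no GATA1 location under 40 bp away whose E-box was closest to the center. Capitals mark CAGCTG or CAGATG and WGATAA, on either strand.
Abca16, chr7:127575132-127575212: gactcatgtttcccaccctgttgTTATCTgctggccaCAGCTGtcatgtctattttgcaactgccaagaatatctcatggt
Abca1, chr4:53098700-53098780: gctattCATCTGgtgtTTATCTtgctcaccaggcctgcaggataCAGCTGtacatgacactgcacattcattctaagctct
Abcc4, chr14:119021741-119021821: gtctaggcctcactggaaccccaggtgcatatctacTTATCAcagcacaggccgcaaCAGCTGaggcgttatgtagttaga

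All 3 of these also held an exact WGATAA. At Abca16, a gene of the group of testis-expressed A-type transporters, the TG of the E-box stood 8 bases before AGATAA on the minus strand. At Abca1 a TG outside the E-boxes stood 7 bases before it. This Abca1 location lay 121 bp from a final GATA1 location. A TAL1 pair near it, at 53098696, had a GATA1 pair under 40 bp away. Abca16 had no GATA1 entry in any list, and its closest GATA1 location was 250544 bp away. Abca4, the flippase of photoreceptors, had TAL1 at 121814541, in an intron, and at 121890017, downstream. MultiGPS called the same number, and there were 5 TAL1 and 2 GATA1 peak pairs but no GATA1 location. Abcc8 encodes the sulfonylurea receptor of potassium channels. Its 1 TAL1 location, at 53351622 on chromosome 7, was downstream and lay 3985 bp from the start of Kcnj11, which encodes the pore that Abcc8 regulates. Abcc9, the second sulfonylurea receptor, had no entry in any list.

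The 32 ABC genes with no final location divide by their peak pairs. In 11 of them there was no entry in any list. Among these were Abca8a, Abca15, Abcb1a, Abcc9, Abcc12, Abcf2, Abcf3, Abcg3, Abcg5 and Abcg8. The other 21 had 1 to 9 peak pairs each and 41 in all, 15 of GATA1 and 26 of TAL1. None of the 41 had a pair of the other factor under 40 bp away, and 4 had an exact WGATAA within 40 bp. Windows moved by 1 kb from final locations elsewhere in the genome had that motif in 8.29% for GATA1 and 8.24% for TAL1. No share was computed for all pairs. The 21 genes were set apart by having no final location. Among all pairs at ABC genes more than 100 bp from a final location of their factor, 6 of 49 for GATA1 (12.2%) and 2 of 62 for TAL1 (3.23%) had a pair of the other factor that close. In the whole lists these shares were 11.8% and 5.53%. The most pairs were at Abca13, with 4 of GATA1 and 5 of TAL1 over 492 kb, the longest gene of the family. Both Abca12, for lipids of the skin barrier, and Abcb11, the bile salt export pump, had 3 pairs. Abca2, a lipid transporter of the brain, Abca14 of the testis-expressed group, and Abcf1, an initiation factor of translation, had 2 each. Abcb4, which moves phosphatidylcholine into bile, and Abcb5, known from pigment and limbal cells, had 1. Of the D-type genes in this group, the peroxisomal transporters Abcd2 and Abcd3 had 1 pair each and Abcd4, a lysosomal one, had 4. The A-type genes clustered on chromosome 11, Abca5, Abca6, Abca8b and Abca9, had 1, 1, 1 and 2 pairs. Of all pairs at ABC genes, 57 of 106 for GATA1 (53.8%) and 101 of 163 for TAL1 lay within 100 bp of a final location, against 46.1% and 50.1% in the whole lists.

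The 76 final locations at ABC genes were mostly intronic. The windows were themselves mostly gene body, with a median gene length of 65.5 kb and a median window of 85.5 kb. No intronic share was computed for locations elsewhere. Of the 25 GATA1 locations 17 lay in an intron of an ABC gene, 7 upstream and 1 downstream, and none in an exon. Of the 51 TAL1 locations 42 were intronic, 5 upstream, 2 downstream, 1 in coding and 1 in untranslated sequence. An ABC gene had the closest start site for 21 of the 25 and 47 of the 51. Within 1 kb of any annotated start site there were 3 GATA1 locations (12%) and 7 TAL1 locations (13.7%), against 12.4% and 9.87% of the final locations elsewhere in the genome. Locations under 500 bp from the next of either factor formed 33 stretches, of which 15 had both factors, 6 GATA1 only and 12 TAL1 only. Stretches were not formed for locations elsewhere, so this split has no background.

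Of the 25 GATA1 locations 12 were cooccupied, or 48% (95% exact binomial interval, 27.8 to 68.7%), against 35.9% of the GATA1 locations elsewhere. A further 4 had TAL1 at 40 bp or more but under 100 bp, and 3 at 100 bp or more but under 500 bp. The other 6 (24%) lay 500 bp or more from TAL1, against 47.1% elsewhere. Of the 51 TAL1 locations 15 were cooccupied, or 29.4% (17.5 to 43.8%), against 27.5% elsewhere, and 34 were under 500 bp from another TAL1 location, or 66.7% (52.1 to 79.2%), against 64.4%. The intervals treat locations as independent although several come from one stretch, cover counting error only, and no test of the differences was made. Without Abcg2 the cooccupied share was 42.9% of 21 GATA1 locations.

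An exact WGATAA lay within 40 bp of 11 of the 25 GATA1 locations, or 44% (24.4 to 65.1%), against 66.5% of GATA1 locations elsewhere. In windows moved by 1 kb it was present at 2 of the 25 (8%) and at 8.29% elsewhere. AGATAG or TGATAG without WGATAA was found at another 8, or 32% (14.9 to 53.5%), against 13.6% elsewhere, with 12% and 6.16% in moved windows. These 8 lay at Abcb6, Abca1, Abcb9, Abcc6, Abcc2, the site shared by Abca3 and Abca17, and, with 2, Abcg2. With both forms together the share was 76.0%, against 80.1% elsewhere, and by the weight matrix it was 80% against 82.2%. Neither form was present at 6 GATA1 locations.

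**Figure D5:**
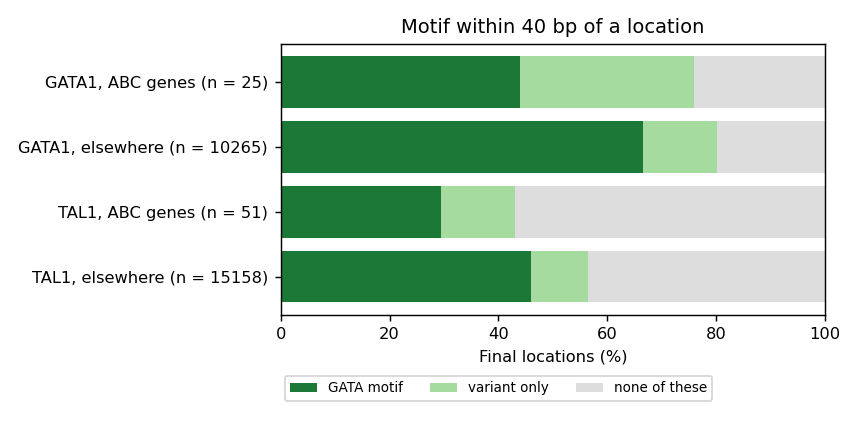
Percentage of final GATA1 and TAL1 locations (horizontal axis) that have the exact GATA motif within 40 bp, only the variant ending in G, or none of these, for locations at ABC transporter genes and for those elsewhere. At ABC genes 44% of GATA1 locations have the exact motif and 32.0% only the variant, against 66.5% and 13.6% elsewhere.

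At the TAL1 locations of ABC genes an exact WGATAA was present in 15 of 51, or 29.4% (17.5 to 43.8%), against 46.0% elsewhere, and the form ending in G alone in 7 (13.7%), against 10.5%. An E-box CAGATG or CAGCTG was within 40 bp of 9 TAL1 locations, or 17.6% (8.40 to 30.9%), against 21.7% elsewhere, and in 2 of the 51 moved windows. TG placed 7 or 8 bases before WGATAA occurred at 2 of the 25 GATA1 locations (8%, 0.984 to 26.0%), at Abcg2 and Abce1, against 21.9% elsewhere, and at 9 of the 51 TAL1 locations (17.6%) against 25.0%. The 14 TAL1 locations at Abcg2 weigh on these shares, since 2 of them had an exact WGATAA. Without Abcg2 it was present at 35.1% of 37.

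Genes that work with the transporters were examined beside them. Of the other ABC proteins, Tap2, a subunit of the peptide transporter of antigen presentation, had 1 GATA1 and 3 TAL1 locations, and Tap1 and Cftr had none. Of 14 genes of cholesterol uptake, efflux and their control, 6 had GATA1 and 6 had TAL1, beside 23.9% and 21.3% of all genes. The most were at Mylip, which encodes the ligase that degrades the LDL receptor, with 4 and 6, and at Srebf2, the regulator of sterol synthesis, with 3 of each. The oxysterol receptor genes Nr1h2 and Nr1h3, whose products induce Abca1, had no final location. Peak pairs were called at both, 1 of each factor at Nr1h2 and 3 of GATA1 at Nr1h3. Rxra, in the same list, had 1 GATA1 and 3 TAL1 final locations. Of 10 genes for partners of the transporters, 4 had GATA1 and 5 had TAL1, with the same backgrounds. The TAL1 location at Kcnj11, one of these partners, is the same one that was counted at Abcc8. Fech, for ferrochelatase, had 5 GATA1 and 12 TAL1 locations and Glrx5, for a mitochondrial glutaredoxin of iron-sulfur synthesis, had 5 and 17, while Iscu, for the iron-sulfur scaffold, had no entry in any list.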

How the data were processed

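ChIP-exo of GATA1 and TAL1 was analysed from the location lists that the authors deposited for 25 libraries, 10 of GATA1 and 15 of TAL1. Per the labels and methods, bases were called with CASAVA 1.7 or bcl2fastq 2.15, and the authors aligned reads to mm9 by Bowtie 1.00, BWA 0.6.2 or BWA 0.7.9a, depending on the sequencer. They kept uniquely mapped reads, merged replicates, left out blacklisted regions and kept calls over 2-fold above input at a q value under 0.05. Column 4 of each deposited list is a position in bp, with no score, count or replicate. Reads filtered as nonunique leave repeated and duplicated sequence without calls.

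All positions were within the mm9 chromosome lengths. Genes were those of GENCODE vM1, the longest entry per name (22350 entries), and start sites were those of all their transcripts. Locations were assigned to every gene whose body, extended by 10 kb on both sides, held them. Cooccupied meant under 40 bp apart and clustered under 500 bp. Motifs had to lie wholly within 40 bp of a location, and windows moved by 1 kb gave the background. Expectation maximization (30 iterations, pseudocount 1) gave the weight matrix. Members, lists and bins were chosen with earlier results of these data known. Full values were given for the 10 members with the most final locations, with ties. Sequences were printed for the 6 members with the most cooccupied GATA1 locations, with ties. They were also printed for up to 3 TAL1 locations with an E-box but no final GATA1 location under 40 bp away. The split by motifs ending in G, the length classes and 2 more sequences were added after values were seen. No test was made, since the lists pool the libraries, and shares have exact binomial intervals at 95%. Counting and motif functions were checked on simulated data. Alternatives were other windows, lists, distances and motif definitions. Figures were drawn with matplotlib 3.10.9, and values computed with pandas 2.3.3, scipy 1.17.1 and numpy 2.4.6 under Python 3.11.15. Some members are counted in the totals but not reported here by name.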

Additional observations from a re-analysis of the deposited data

How the results depend on the processing

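Of 62 values recomputed under other settings, 50 stayed within 1.5 times the count or inside the interval of the share. With windows of 50 kb, 21 ABC genes had GATA1, against 42.7% of all genes, and there were 53 GATA1 and 89 TAL1 locations. With peak pairs in place of final locations, 25 had GATA1 (background 48.4%) and 31 had TAL1 (50.1%), with 106 GATA1 and 163 TAL1 pairs. Pairs of both factors were at 18, for which no share of all genes was computed. With TAL1 under 20 bp away, 24% of GATA1 locations were cooccupied, against 22.0% elsewhere. A WGATAA site was found at 76% of GATA1 locations with AGATAG and TGATAG added, and by the weight matrix at 80% of GATA1 and 45.1% of TAL1 locations. In the gene body alone, 9 ABC genes had GATA1 and 11 had TAL1, against 14.4% and 12.9% of all genes, and Abcc2, Abcc6, Abcc8 and Abca17 had no location left. With overlapping windows merged into 42 units, 12 had GATA1 and 13 TAL1, and no background was computed for such units. Requiring a peak pair within 40 bp kept 24 of the 25 GATA1 and 47 of the 51 TAL1 locations. No paired analysis was possible because the lists pool all libraries of a factor and no value comes from a test, and for the same reason no library could be left out. The lists hold no depth, so a gene without a location cannot be told from one bound below the calling threshold.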
